A study of Mus musculus with 9 samples.

Results

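The regions described here are places in the mouse genome where both E2A and HEB had a called peak in DN3 thymocyte precursors and where some, but not all, of the later peak lists still had a peak. The regions were chosen by the presence of called peaks alone. Peaks of the 6 deposited lists were merged where they overlapped by at least 1 bp on chromosomes 1 to 19, X and Y. A region was taken if it held a peak in both DN3 lists, in at least 1 CD73- list and in at least 1 CD73+ list, and was left out if all 6 lists had a peak. This gave 1009 of 58451 merged regions, called partly kept here. They made up 19.1% of the 5292 regions shared by E2A and HEB in DN3 cells (95% Wilson interval 18.0% to 20.1%), beside 607 regions with a peak in all 6 lists, 2257 with no later peak, 1109 with later peaks in CD73+ cells only and 310 in CD73- cells only.

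The series profiled E2A and HEB by chromatin immunoprecipitation and sequencing in Rag2-deficient fetal liver cells of the BALB/c strain, cultured on the OP9-DL1 stromal line. DN3 cells, which carry no transduced receptor, were harvested at day 7. The other cells were such DN3 cells given the KN6 gamma-delta T cell receptor overnight with a YFP-marked retrovirus, then grown on OP9-DL1 for 3 days. From these, CD24+ CD73- cells (still able to take the alpha-beta fate, per the labels) and CD24+ CD73+ cells (committed to the gamma-delta fate) were sorted. All 3 groups lack Rag2, so their own receptor genes are not rearranged. No group was transduced without the receptor or cultured for as long without it, so effects of the receptor, the transduction, the added culture and the sort cannot be told apart. Each group had 1 E2A, 1 HEB and 1 input library, into which the submitters had joined duplicate preparations. No value therefore has a replicate error, and no test against one could be made.

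E2A and HEB are basic helix-loop-helix proteins, encoded by Tcf3 and Tcf12, that bind as dimers to the E-box, a short palindrome-like sequence written CANNTG. In thymocyte precursors they drive genes of receptor rearrangement and signalling and hold back proliferation. Signals from the T cell receptor induce Id3, a protein that lacks the DNA-binding region and takes E proteins off DNA. At each stage both antibodies were set against the same input library, so peaks of E2A and HEB there are not independent.

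Promoter sequence shows what lies under some of these regions. Of the 990 regions on chromosomes that the promoter table covers, 89 lay over a RefSeq promoter window (250 bases before to 50 after a start site, build GRCm38.p6, the assembly of mm10). Windows of 5 genes are printed 5′ to 3′ with each CANNTG in capitals, chosen to show where the later peaks fell relative to the E-boxes. Lat (chr7:126369519-126369818, minus strand) encodes the adaptor that relays T cell receptor signals, and Lck (chr4:129558323-129558622, minus strand) the kinase that starts them. Neil1 (chr9:57148256-57148555, minus strand) encodes a DNA repair glycosylase, Pgm2l1 (chr7:100227357-100227656, plus strand) an enzyme of sugar phosphates, and Adamts17 (chr7:66839485-66839784, plus strand) a secreted metalloprotease.
Lat: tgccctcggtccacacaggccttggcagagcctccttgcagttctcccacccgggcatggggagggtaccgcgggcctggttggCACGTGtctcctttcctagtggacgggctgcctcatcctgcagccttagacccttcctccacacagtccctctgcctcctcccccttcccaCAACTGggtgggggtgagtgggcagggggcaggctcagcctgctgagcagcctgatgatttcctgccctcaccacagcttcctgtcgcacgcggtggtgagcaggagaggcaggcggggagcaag
Lck: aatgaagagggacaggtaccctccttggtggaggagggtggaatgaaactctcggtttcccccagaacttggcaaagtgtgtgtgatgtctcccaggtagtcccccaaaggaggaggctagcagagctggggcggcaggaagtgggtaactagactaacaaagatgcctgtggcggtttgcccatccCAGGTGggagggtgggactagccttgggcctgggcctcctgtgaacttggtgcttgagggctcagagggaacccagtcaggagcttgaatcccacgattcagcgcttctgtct
Neil1: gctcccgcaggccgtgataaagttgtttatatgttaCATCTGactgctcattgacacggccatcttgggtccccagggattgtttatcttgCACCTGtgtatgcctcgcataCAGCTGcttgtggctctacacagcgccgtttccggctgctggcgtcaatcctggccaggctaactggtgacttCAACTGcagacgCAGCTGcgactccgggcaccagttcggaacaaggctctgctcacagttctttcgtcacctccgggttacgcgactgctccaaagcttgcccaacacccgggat
Pgm2l1: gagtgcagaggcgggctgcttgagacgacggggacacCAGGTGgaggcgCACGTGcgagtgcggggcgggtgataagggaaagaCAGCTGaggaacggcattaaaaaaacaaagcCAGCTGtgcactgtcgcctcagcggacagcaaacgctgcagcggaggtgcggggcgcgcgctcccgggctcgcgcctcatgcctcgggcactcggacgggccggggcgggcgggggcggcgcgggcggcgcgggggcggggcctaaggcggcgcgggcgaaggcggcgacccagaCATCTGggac
Adamts17: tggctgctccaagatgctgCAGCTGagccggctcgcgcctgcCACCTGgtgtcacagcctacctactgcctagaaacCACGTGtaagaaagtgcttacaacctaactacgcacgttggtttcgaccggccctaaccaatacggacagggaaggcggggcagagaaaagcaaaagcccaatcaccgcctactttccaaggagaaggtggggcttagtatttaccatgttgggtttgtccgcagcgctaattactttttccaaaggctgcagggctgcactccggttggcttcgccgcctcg

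In the Lat window the later peaks covered different stretches. The CD73+ HEB peak took in bases 35 to 300, the CD73- HEB peak bases 93 to 300 and the CD73- E2A peak bases 172 to 300. The CACGTG at bases 85 to 90 was thus under the CD73+ HEB peak, and the CAACTG at bases 176 to 181 lay under all 3 of these peaks. The single E-box of the Lck window, CAGGTG at bases 188 to 193, lay under the CD73+ HEB peak (bases 1 to 275), the CD73- E2A peak (118 to 236) and the CD73- HEB peak (150 to 300). Pgm2l1 had a CD73+ HEB peak over bases 1 to 213 and a CD73- HEB peak over bases 1 to 165. Its CAGGTG match, its CACGTG match and its pair of CAGCTG matches lay under both, and its CATCTG match at bases 291 to 296 under neither. All 5 matches of the Neil1 window lay under its CD73+ HEB and CD73- E2A and HEB peaks. Adamts17 stands for the opposite case. Its CAGCTG match, its CACCTG match and its CACGTG match lay under the DN3 peaks alone, and the later peaks of that region stood outside the window.

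Most of the 1009 regions had a CD73+ HEB peak and few had a CD73+ E2A peak. In CD73+ cells 136 regions had an E2A peak (13.5%, 11.5% to 15.7%) and 966 a HEB peak (95.7%, 94.3% to 96.8%). In CD73- cells 538 had an E2A peak (53.3%, 50.2% to 56.4%) and 846 a HEB peak (83.8%, 81.4% to 86.0%). The lists differed in length, with 23205 peaks for CD73+ E2A, 10194 for CD73+ HEB, 12434 for CD73- E2A and 9407 for CD73- HEB. The share of peaks scoring at least 100 was 7.02%, 24.1%, 8.79% and 14.3% in the same order. The CD73+ E2A list was thus the longest and had the lowest such share. Among all 5292 joint DN3 regions the shares with a peak were 16.0% for CD73+ E2A, 49.9% for CD73+ HEB, 24.0% for CD73- E2A and 32.0% for CD73- HEB, and 30.5% had a peak in both populations. The rule uses these lists, so the shares describe the selection and are not results about it. They also rest on the antibody labels of the CD73+ lists. Membership does not depend on those labels, but with the lists exchanged the CD73+ shares become 95.7% for E2A and 13.5% for HEB.

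All 8 patterns that the rule allows were found. The most frequent, with 400 regions (39.6%), had HEB and no E2A peak in both populations. Next came 350 regions (34.7%) that lacked only the CD73+ E2A peak. HEB in CD73+ cells with E2A alone in CD73- cells was seen in 123 regions. Only 12 regions had E2A and no HEB peak in both populations. A peak of the same factor in both populations was present for HEB in 815 regions (80.8%) and for E2A in 65 (6.44%). In 129 regions (12.8%) no factor had a peak in both populations, so different factors were called in CD73+ and CD73- cells. This does not show that the uncalled factor was absent. In the 123 of these with CD73+ HEB and CD73- E2A, the median CD73- E2A score was 64.3, where the minimum is 50. In all, 468 regions lacked 1 list and 541 lacked 2.

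**Figure D1:**
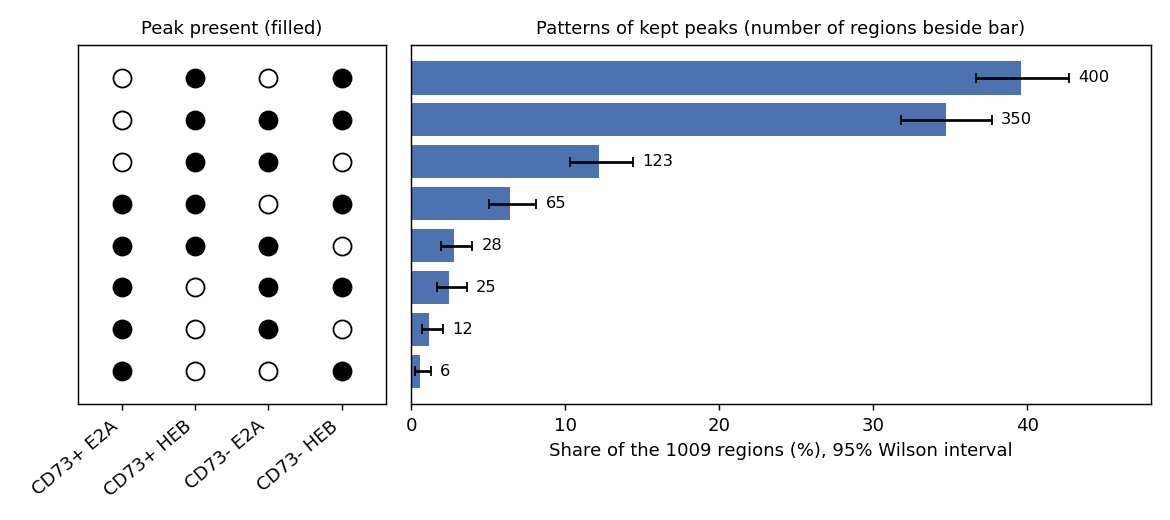
Patterns of CD73+ and CD73- peaks among the 1009 regions. Filled circles mark a list with a peak, bars give the share of regions (%) with 95% Wilson intervals, and the number beside each bar counts regions: 400 had HEB alone in both populations and 350 lacked only CD73+ E2A.

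The score of a peak, as the authors' caller gave it, is read here as minus 10 times the log10 of its p-value, and ranks peaks only within a list. They chose the members in so far as a peak must reach the minimum of 50, and are given as a description. Within the DN3 E2A list the regions scored 50.4 to 3100, with a median of 334. The median was 460 at regions with a peak in all 6 lists and 114 at joint regions with no later peak. Within the DN3 HEB list the medians were 206, 372 and 83.4 in the same order. The typical partly kept region thus stood at the 89.2 percentile of all DN3 E2A peaks and at the 87.8 percentile of all DN3 HEB peaks.

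The later scores were lower than at regions with all 6 peaks, yet above the median of their own lists. The median was 88.5 for CD73- E2A, 87.5 for CD73- HEB, 72.1 for CD73+ E2A and 174 for CD73+ HEB, against 184, 225, 148 and 338 at regions with all 6 peaks. The medians of the whole lists were 58.3, 61.5, 61.5 and 63.2 in the same order, and the typical partly kept region stood at the 88.5, 81.5, 76.2 and 86.8 percentiles. A score of at least 100 was reached by 225 of the 538 CD73- E2A peaks, 359 of the 846 CD73- HEB peaks, 32 of the 136 CD73+ E2A peaks and 709 of the 966 CD73+ HEB peaks. The weaker of the best CD73+ and the best CD73- peak decides membership. It was at the minimum of 50 in the regions just inside the rule, had a median of 79.7, was under 60 in 259 regions (25.7%) and at least 100 in 376 (37.3%). Just outside the rule, 24 of the 1109 joint regions with CD73+ peaks only had a CD73- peak within 1 kb, the nearest at 168 bp. Of the 310 regions with CD73- peaks only, 7 had a CD73+ peak within 1 kb, the nearest at 101 bp.

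**Figure D2:**
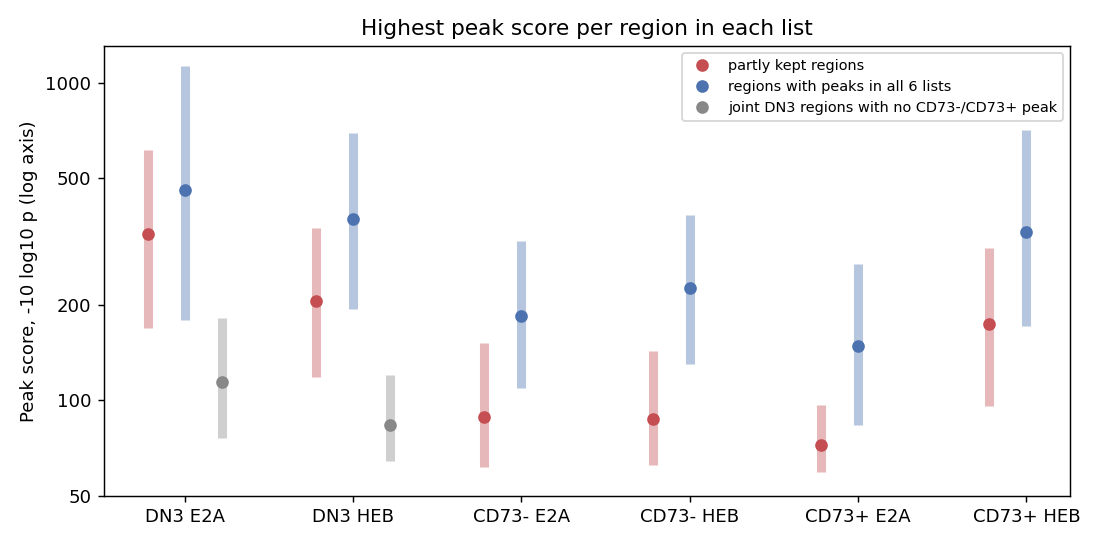
Highest peak score per region (log axis, minus 10 times log10 p) in each list: circles are medians and bars the quartiles for the 1009 partly kept regions, the 607 regions with all 6 peaks and, in the DN3 lists, the 2257 joint regions with no later peak. In DN3 E2A the medians were 334, 460 and 114.

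The later peaks are given by DN3 score as a description that the rule shapes. Regions with all 4 later peaks are left out, and these made up 3.93%, 6.12%, 8.92% and 26.9% of the joint DN3 regions in 4 groups of 1323 from the lowest to the highest DN3 E2A score. The shares within the partly kept regions therefore cannot be read as a trend of the sites with DN3 score. With the partly kept regions in 4 groups of 252 or 253 by DN3 E2A score, from 50.4 up to 3100, a CD73- E2A peak was present in 44.0%, 42.1%, 51.6% and 75.5%. The share with a CD73- HEB peak lay between 81.3% and 86.5% in these groups. A CD73+ HEB peak was present in 87.3% of the lowest group and in 97.6% to 99.2% of the others. A CD73+ E2A peak was present in 22.2% of the lowest group and in 9.13% to 12.7% of the others. Over the regions with both peaks, the rank correlation of the DN3 E2A score was 0.34 with CD73- E2A (n = 538), 0.35 with CD73+ HEB (n = 966) and -0.32 with CD73+ E2A (n = 136). For the DN3 HEB score it was -0.03 with CD73+ E2A. Between the DN3 E2A and HEB lists, which share an input, it was 0.72 (n = 1009). These are correlations over sites of single libraries, taken after the regions with all 6 peaks were left out, and carry no p.

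**Figure D3:**
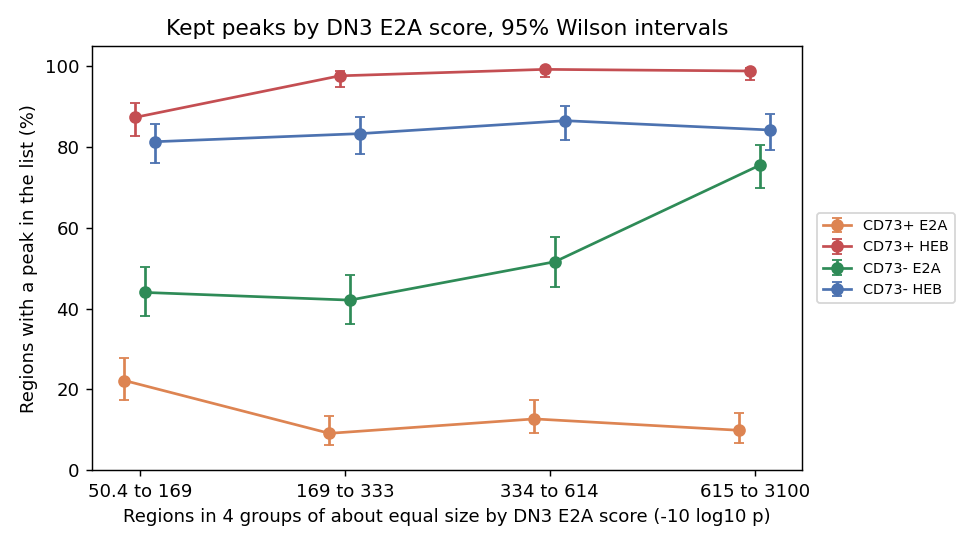
Share of regions (%) with a peak in each CD73+ or CD73- list, in 4 groups of regions by DN3 E2A score, with 95% Wilson intervals. The CD73- E2A line is at 75.5% in the highest group and 44.0% in the lowest, and the CD73- HEB line lies between 81.3% and 86.5%. Regions with all 6 peaks are not included, so the lines do not show a trend of all joint sites.

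The 43 regions without a CD73+ HEB peak are set beside the others as a description, with no test. Their median DN3 E2A score was 81.7, against 347 in the 966 regions with one. Of the 43, 29 (67.4%) scored under 100, against 88 of the 966 (9.11%). By the rule all 43 entered through the CD73+ E2A list, the longest and the one with the lowest share of scores of at least 100. Over all 136 regions with a CD73+ E2A peak the median was 228, and 44 (32.4%) scored under 100. The rule thus shapes these values. Over all merged regions 28.4% lay over 100 kb from the nearest protein-coding gene. Of the 43 regions, 12 lay so far away (27.9%, 16.7% to 42.7%), near that share, against 84 of the 966 (8.70%, 7.08% to 10.6%). Fndc3b, a gene of a fibronectin-domain membrane protein, held the one with the highest DN3 E2A score (chr3:27440168-27441341). Its E2A scores were 1422, 350 and 267 in DN3, CD73- and CD73+ cells and its HEB scores 1987 and 366 in DN3 and CD73- cells.

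The later peaks sat near the middle of the DN3 peaks, a property that the rule does not fix beyond the merge. The midpoint of the highest CD73+ HEB peak lay a median 80.2 bp from the midpoint of the DN3 E2A peak (quartiles 37.5 and 141 bp). For CD73+ E2A the median was 79.2 bp, for CD73- E2A 86.0 bp and for CD73- HEB 92.5 bp. The DN3 HEB midpoint lay a median 93.0 bp away. DN3 peaks here had a median width of 902 bp for E2A and 1104 bp for HEB, whereas later peaks had medians of 183 to 376 bp. The merge thus favours later midpoints inside the wide DN3 peaks, and the level it would give was not computed. In 948 of the 966 regions with a CD73+ HEB peak (98.1%) its midpoint was inside the overlap of the DN3 E2A and HEB peaks, and the other lists gave 95.6% to 97.8%. A CD73+ peak and a CD73- peak overlapped each other directly in 969 regions (96.0%, 94.6% to 97.1%), and the best peaks of the 2 populations had midpoints a median 55.0 bp apart. The rule joins peaks that only touch in a chain, so 40 regions held CD73+ and CD73- peaks side by side rather than on one another.

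**Figure D4:**
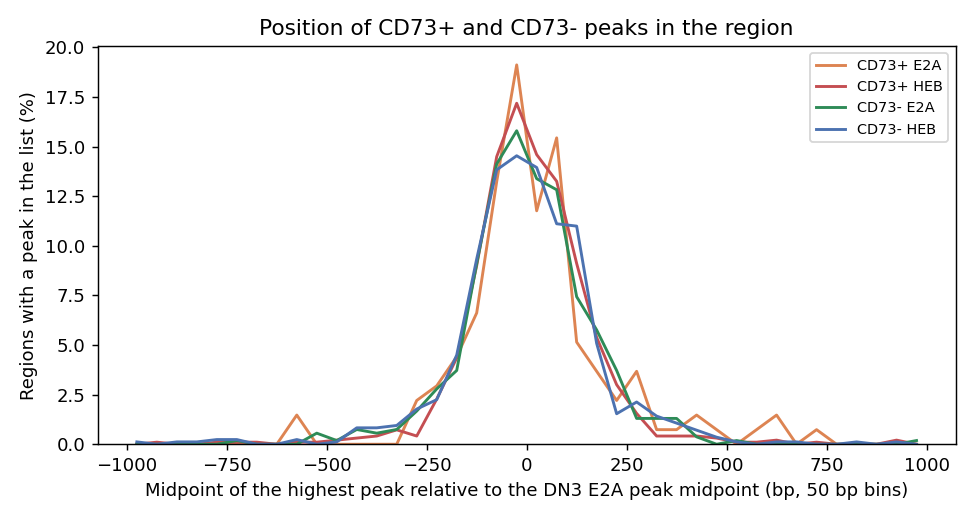
Distance from the midpoint of the DN3 E2A peak to the midpoint of the highest CD73+ or CD73- peak (bp, 50 bp bins, within 1000 bp), as the share of regions with a peak in that list. All 4 lists centre on the DN3 E2A midpoint, with median absolute distances of 79.2 to 92.5 bp.

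Relative to genes, 563 of the 1009 regions (55.8%) lay in the span of a protein-coding gene and 712 (70.6%, 67.7% to 73.3%) in a span or within 10 kb of one. That share was 56.0% (52.0% to 59.9%) at regions with all 6 peaks, 69.5% (67.6% to 71.4%) at joint regions with no later peak and 44.7% over all merged regions. Start sites were taken from the promoter table, which covers 17492 of 21907 genes. Within 1 kb of one lay 99 of 990 regions (10.0%, 8.28% to 12.0%), against 7.30% (5.46% to 9.69%) of regions with all 6 peaks, 5.52% (4.64% to 6.55%) of joint regions with no later peak and 2.98% of all merged regions. The median distance to a start site of that table was 27484 bp, with 209 regions (21.1%) over 100 kb away. Genes absent from the table make these distances too long. The region in the Lypla1 span, for example, has Crisp4 as its nearest start site, at 13309662 bp. The one in Chd7 has Gm11780 at 4269534 bp. Over 100 kb from any protein-coding span lay 96 regions (9.51%, 7.85% to 11.5%), against 122 of 607 regions with all 6 peaks (20.1%, 17.1% to 23.5%). That share was 8.82% at joint regions with no later peak and 28.4% over all merged regions. Regions are not replicates, and the intervals cover counting error only. The reference gives no exons, so exonic and intronic positions were not separated.

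**Figure D5:**
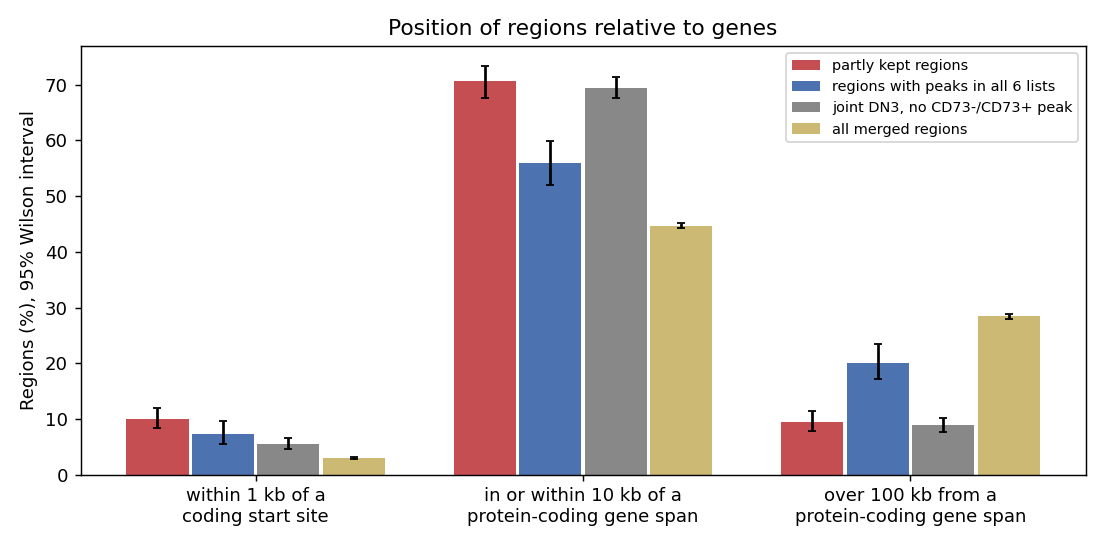
Share of regions (%) by position relative to genes, with 95% Wilson intervals, for the 1009 partly kept regions and for comparison sets. Within 10 kb of a protein-coding span lay 70.6% of partly kept regions, 56.0% of regions with all 6 peaks, 69.5% of joint DN3 regions with no later peak and 44.7% of all merged regions.

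E-boxes were counted in the promoter windows that the regions touch, 109 windows of 100 genes. Motifs were read on both strands, and each specific E-box is also a match of CANNTG. The general motif was in 80.7% of these windows (72.3% to 87.0%), against 72.3% of all 32851 windows. CAGCTG was in 29.4% (21.6% to 38.5%), against 16.3%, and CAGGTG in 38.5% (29.9% to 47.9%), against 20.2%. At windows of regions with all 6 peaks these 2 shares were 31.8% and 34.8%, and at joint regions with no later peak 29.4% and 44.1%. CATCTG was in 19.3% against 17.2% of all windows, and CACGTG in 10.1% against 7.15%. Of motifs of other families, the Ets motif AGGAAG was in 45.0% of member windows, against 35.4% of all. The TCF/LEF motif CTTTGA was in 14.7%, against 16.0%. AGATAA, bound by the GATA family, was in 5.50%, against 11.2%. AACCACA, bound by RUNX factors, was in 3.67%, against 5.27%. The member windows had a median GC content of 60.3%, against 52.7% over all windows, and its part in these shares was not tested.

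Within the same windows, in a comparison chosen after the values were seen, CAGCTG and CAGGTG matches lay mostly under the narrow later peaks. CACGTG matches did not. The stretches under a CD73+ or CD73- peak held 28 CAGCTG matches in 13020 bases, 2.15 per kb, and those under DN3 peaks alone 7 in 14508 bases, 0.482 per kb. CAGGTG stood at 2.76 per kb under later peaks and 1.24 per kb outside them, and CANNTG at 7.60 and 4.34 per kb. CATCTG stood at 0.922 and 0.620 per kb and CACGTG at 0.384 and 0.414 per kb. Of motifs of other families, CTTTGA stood at 0.691 and 0.345 per kb, AACCACA at 0.230 and 0.138, AGGAAG at 2.53 and 2.14 and AGATAA at 0.230 and 0.207, the rarer ones resting on 9 matches or fewer a side. Nothing particular to E-boxes is read from these values. GC content was 60.6% under later peaks and 58.7% outside. These are counts in single libraries, given without a test. A match describes the letters and is not evidence that the protein sat on them.

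Genes were then read from fixed lists, counting a gene if a partly kept region lay in its span or within 10 kb. Over all 21907 genes 817 qualified, 3.73%, whereas 33 of 201 list genes did (16.4%). Of genes with any joint DN3 region, 26.5% of all genes and 33.3% of list genes had a partly kept one. The lists were drawn up with earlier results of these data known, so these counts are descriptive.

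Among receptor and proximal signalling genes 6 of 19 had such a region, among them Trbc2, Lat, Lck, Cd28 and Cd247. The region 4994 bp from Trbc2, a constant gene of the beta chain (chr6:41553176-41555451), scored 1039 and 183 with the E2A antibody in DN3 and CD73- cells. With the HEB antibody it scored 638, 317 and 1026 in DN3, CD73- and CD73+ cells. Lat had E2A scores of 627 and 97.3 and HEB scores of 490, 138 and 347 at the same stages. Lck had 2 regions. The region over the printed Lck window was weak with the E2A antibody, at 86.4 in DN3 and 53.7 in CD73- cells. Its HEB scores were 123, 83.9 and 161. The other region (chr4:129574890-129576458) lay 1248 bp upstream of the gene span and of a different Lck start site. There DN3 E2A reached 380, with HEB scores of 133, 162 and 437. At each of these named genes the CD73+ peaks were HEB peaks. Cd247, the zeta chain, had a CD73- E2A peak and no CD73- HEB peak.

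The list for the pre-TCR stage and alpha-beta cells had 4 of 16. At Rag1, the recombinase gene, it lay 580 bp upstream (chr2:101650113-101651033), with 552 for DN3 E2A and 127, 70.6 and 169 for HEB in DN3, CD73- and CD73+ cells. Dntt, which encodes terminal transferase, had 854 and 52.4 for E2A in DN3 and CD73- cells and 324, 65.7 and 284 for HEB. Cd1d1, a lipid-presenting molecule, had 600 for DN3 E2A and 132 and 59.1 for HEB in DN3 and CD73+ cells, with a CD73- E2A peak and no CD73- HEB peak.

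Genes induced by T cell receptor signals had 5 of 20, Nr4a1, Dusp2, Nfkbid, Nr4a3 and Id3. These 5 were among 8 list genes with a joint DN3 region, and no gene of the list had a region with all 6 peaks. Over all genes, 419 of the 3086 with a joint DN3 region had one with all 6 peaks. With 8 genes, the lack of one is not read as a trait of the list. Nr4a1, an orphan nuclear receptor, had 414 and 111 for E2A in DN3 and CD73- cells and 379, 135 and 751 for HEB in DN3, CD73- and CD73+ cells (chr15:101257583-101259197). Dusp2, a phosphatase of MAP kinases, had 1 region over its start site and 1 lying 6850 bp upstream, both with HEB and no E2A peak in the later cells. Id3, the inhibitor itself, had a weak region 2148 bp from its span, with 59.3 for DN3 E2A and 75.1, 66.0 and 94.3 for HEB. This region had the lowest DN3 E2A score of 6 partly kept regions between 136088078 and 136148544 on chromosome 4. The others lay farther from Id3 than the limit used for the lists. The highest (chr4:136088078-136089946), with Rpl11 as nearest gene, had 847 and 161 for E2A in DN3 and CD73- cells. Its HEB scores were 589, 260 and 813. Within 5 kb the count for the list of induced genes is 3.

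In the gamma-delta list 5 of 19 genes qualified, among them Blk, Etv5, Cd27 and Sox13. Blk, a Src-family kinase used by IL-17-producing gamma-delta cells, was the one of these with a CD73+ E2A peak (62.2, beside 487 for CD73+ HEB, 89.3 for CD73- HEB, and 762 and 370 for DN3 E2A and HEB). Etv5, an Ets factor of the same cells, had peaks of both factors in CD73- cells, 122 for E2A and 80.7 for HEB. Sox13, an early gamma-delta factor, had 120 for DN3 E2A and 153, 65.1 and 87.1 for HEB. Cd27, a costimulatory receptor, had a region 1036 bp from its span with 335 for DN3 E2A and 104, 140 and 133 for HEB.

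The Notch list had 3 of 14. At Notch1, the receptor that commits cells to the T lineage, the region lay 8983 bp upstream (chr2:26512806-26514291), with E2A scores of 1714 and 347 in DN3 and CD73- cells and HEB scores of 1056, 201 and 260. Notch2 had HEB alone in the later cells, and Mfng, a fringe glycosyltransferase, had CD73- E2A (180) and CD73+ HEB (53.6). T lineage transcription factors had 3 of 20. Gfi1, a zinc finger repressor, was the strongest, with 1141 and 233 for E2A and 616, 382 and 558 for HEB (chr5:107717127-107719486). Tcf12, which encodes HEB, had a region in its own span with 130 and 52.2 for E2A and 141, 56.6 and 242 for HEB. Runx3 had 240 for DN3 E2A and 135, 61.4 and 424 for HEB. With each region given to its nearest gene span at any distance, this list has 9 of 20 and the list of induced genes 8 of 20.

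Homing receptors had 2 of 15, with 1 within 5 kb and 5 within 50 kb. Cxcr4, the thymic chemokine receptor, had 703 and 226 for E2A in DN3 and CD73- cells and 426, 199 and 488 for HEB at the 3 stages. Ccr9, which guides cells to the thymus and gut, had 2 regions less than 1 kb apart upstream of its start. The nearer (chr9:123756302-123757988) had E2A scores of 550 and 108 and HEB scores of 560, 308 and 1079. The farther (chr9:123753901-123756034), 11176 bp away, had no CD73- E2A peak but a CD73+ E2A peak of 68.5, with 1094 for DN3 E2A and 684, 359 and 903 for HEB.

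Cell cycle genes had 3 of 16, Ccnd3 (cyclin D3), E2f1 and Tob1, and 5 within 50 kb. Tob1, an antiproliferative gene, had a CD73+ E2A peak of 75.7, with 69.8 for DN3 E2A and 396, 389 and 171 for HEB. Ccnd3 also has 2 regions with all 6 peaks nearby. Survival genes had 1 of 13, Bcl2l1, which encodes BCL-XL, with 808 and 51.8 for E2A and 514, 92.9 and 488 for HEB. Cytokine receptor and JAK-STAT genes had 1 of 19, Socs1, a feedback inhibitor of cytokine signals, although 10 of the 19 had a joint DN3 region. Its promoter window holds no CANNTG. Within 50 kb the cytokine list has 5 genes and the survival list 2. Of lists for other cells, stromal markers had 1 of 6 (Pdgfrb), and B lineage (8 genes), myeloid (7), erythroid (6) and liver markers (5) had 0. Within 50 kb the B lineage and myeloid lists have 2 each. A binding site near a marker gene is not its expression, so these counts do not check the cells.

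Of regulators looked up whatever their values, Tcf7, Gata3, Bcl11b, Runx1, Ikzf1, Zbtb16, Il7r and Nt5e (CD73 itself) had no partly kept region within 10 kb. Ptcra, the pre-TCR alpha chain, and Cd3e each had 2 joint DN3 regions, both with no later peak. Notch3, Trac, Ikzf3, Ets1, Sox4, E2f2 and Arpp21 had regions with all 6 peaks and none that was partly kept.

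The highest regions of the set are mostly not at genes of these lists. By the rule of best worst rank, the first was 7590 bp from Iftap on chromosome 2 (chr2:101550847-101553188), ranked 21 or better among the 1009 regions in each list with a peak. It scored 1810 and 597 for E2A in DN3 and CD73- cells and 1200, 560 and 880 for HEB at the 3 stages. The nearest span is only a name for this region. The Rag1 region described above lies farther along the same chromosome, at 101650113 to 101651033. Next was one in Chd7, a chromatin remodeller, with 1776 and 362 for E2A and 1156, 444 and 1106 for HEB (chr4:8798993-8800561). Slc16a5, a transporter gene, followed, with E2A scores of 1968 and 297 and HEB scores of 1002, 440 and 692. The regions that tied at 3100 for DN3 E2A lay in Nfix or had Myc (220904 bp away) or Lipg (57345 bp away) as nearest gene. Their CD73+ HEB peaks scored 369, 193 and 131, so the highest DN3 E2A peaks of the set were not its highest CD73+ HEB peaks. The highest DN3 E2A score over all joint DN3 regions was 3216. Whether the shared 3100 is a value set by the caller was not tested, so it may not rank these regions.

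Some genes held several partly kept regions. Gse1, which encodes a coiled-coil protein, had 6 in or near its span of 352883 bp, and Pik3r5, a regulatory subunit of a PI3 kinase, had 4. St6gal1, a sialyltransferase gene, and Col15a1 had 3 each. Of the 817 genes, 726 had 1.

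The antigen receptor loci, unrearranged in these cells, held 23 partly kept regions, a group added after the values were seen. The Tra/Trd locus had 14 of its 51 joint DN3 regions, Igh 6 of 21, Trg 2 of 4 and Trb 1 of 1. Igk had 0 of 3, and Igl had no joint DN3 region. Over all joint DN3 regions the count was 1009 of 5292 (19.1%), and no difference from it was tested. In Tra/Trd 13 of the 14 lay at V segments. The region at Trav15d-1-dv6d-1 (chr14:52862790-52864874) scored 1847, 65.7 and 57.3 for E2A in DN3, CD73- and CD73+ cells and 849 and 476 for HEB in DN3 and CD73+ cells. The region at Trav15n-1 (chr14:53173601-53175834) scored 1719, 70.8 and 57.3 for E2A and 847 and 528 for HEB. Trav4d-3 and Trav4n-3 were as alike, with 270 and 256 for DN3 E2A and 125 and 136 for CD73+ HEB. The d and n segments are named as copies of one another. Whether reads were shared between such copies was not tested, so these regions may not be independent sites. All 6 Igh regions lay among V segments and had no CD73+ E2A peak, and 5 of them had CD73- HEB and no CD73- E2A peak.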

How the data were processed

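Chromatin from 3 groups of mouse cells was immunoprecipitated for E2A or HEB and sequenced beside an input, 9 libraries with 1 for each cell group and antibody or input. Bowtie, HOMER and MACS 1.4.2 and build mm10 are named, with no order, per the submitters' processing notes, and per the labels' protocols duplicates were joined before analysis. The 6 files used are peak lists. Each deposited peak has a score, taken here as the minus 10 times log10 p that MACS writes, since no header states it and its lowest value is 50. Read depth is not stated, so it is unknown here, and scores were used only within a list.

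Regions were merged and chosen as described above. Lists were matched to groups by the cell and antibody they name, and 0 lists were left over. The members, gene lists and motifs were chosen with earlier results of these data known. Shares carry 95% Wilson intervals, which cover counting error only. Genes came from a RefSeq table of the same assembly (GRCm38.p6), 21907 protein-coding and constant region genes, and all 201 list symbols matched. Promoter sequence and start sites came from 32851 RefSeq windows of 300 bases. No window of chromosome 18 was used here. Where a region has several peaks in a list, its highest score is given.

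Named regions follow a rule: the 3 with the highest DN3 E2A score in each pattern, the 10 with the best worst rank, the 10 highest over promoter windows, up to 4 genes per list, genes with 3 or more regions, and a fixed set of regulators. Not all of them are printed, and some genes are not reported here. Receptor loci, printed promoters and motif density under peaks were chosen after their values were seen. The merge and the rule were run on 2000 simulated regions, and all 423 planted members were recovered. Simulated peaks of a region always overlapped and regions lay far apart, so this checks the code only. It does not cover the narrow or chained peaks of the real lists. Alternatives are given in the closing section. Python 3.11.15, numpy 2.4.6, pandas 2.3.3 and matplotlib 3.10.9 were used.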

Additional observations from a re-analysis of the deposited data

Results flagged for a closer look

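One result lies outside the chromosomes used. On sequences that are not placed on a main chromosome, 1 region met the same rule, on GL456370 at 3723 to 4611. It scored 92.2 and 123 for E2A in DN3 and CD73- cells and 97.4, 59.4 and 62.9 for HEB in DN3, CD73- and CD73+ cells. Input signal at this place was not analysed here.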

How the results depend on the processing

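With a score of at least 100 for every peak, 509 regions met the rule, and the shares with a peak were 7.86% for CD73+ E2A, 97.6% for CD73+ HEB, 58.5% for CD73- E2A and 87.8% for CD73- HEB, with 51.9% lacking 1 list. With lists cut to 9407 peaks each the shares were 7.29% for CD73+ E2A, 97.4% for CD73+ HEB and 87.6% for CD73- HEB. With the CD73+ lists exchanged, CD73+ E2A and HEB stood at 95.7% and 13.5%. Leaving out the CD73+ E2A list, chosen after seeing the data, gave 616 regions, 24.5% with CD73- E2A and 75.5% with CD73- HEB, since regions with both then count as complete. Overlap of 50 bp, leaving out peaks or regions wider than 3000 bp, all sequences, direct overlap with a DN3 peak and midpoints inside the DN3 overlap moved none of these results beyond 1.5 times or their interval. Distance limits set position shares by construction: 65.3% within 5 kb and 58.4% within 1 kb of a protein-coding span, 87.0% within 10 kb of any gene, and 20.3% and 78.9% within 5 and 100 kb of a start site. Within 50 kb, 55 list genes qualified. Peak offsets and E-box shares stayed within their quartiles or intervals. No paired analysis was possible because each group has 1 pooled list. Depth is unknown, so a missing peak is a site not called, which does not show that the factor was absent.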

Other observations

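A small group of regions stood out by their CD73+ E2A scores, chosen after the values were seen. The 5 highest, with nearest genes Sulf1, Pla2r1, Dpp9, Olfr854 and Gm8882, scored 598 to 1147 for CD73+ E2A and had no CD73+ HEB peak. In the other lists they scored 74.4 to 96.7 for DN3 E2A, 746 to 1047 for DN3 HEB, 408 to 700 for CD73- E2A and 1018 to 1301 for CD73- HEB. They are thus near the minimum in 1 DN3 list and high in the other. None lay within 1 kb of a coding start site of the promoter table, which does not cover all genes.

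Some stretches held many regions. On chromosome 4, from 88759593 to 88797982, 7 partly kept regions lay among tandem interferon-like genes including Ifnz, and all 7 had CD73+ HEB and both CD73- peaks and no CD73+ E2A peak. On chromosome 8, 7 of the 18 regions wider than 3000 bp lay between 20038466 and 20621495, the widest of 10130 bp. Tandem gene copies share sequence, so how reads were assigned between them is uncertain, and this was not tested on either stretch. The 6 regions near Id3 and Rpl11, from 136088078 to 136148544, formed another stretch on chromosome 4. All 6 had a CD73+ HEB peak and 1 a CD73+ E2A peak. A CD73- E2A peak was present in 4 and a CD73- HEB peak in 3.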
